A study of Mus musculus with 2 samples.

Results

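The miR-181 family was described in the intestine of mouse embryos at embryonic day 16.5. Its 6 genes, Mir181a-1, Mir181b-1, Mir181a-2, Mir181b-2, Mir181c and Mir181d, were chosen by name from the 1973 miRNA gene rows, through the Ensembl identifier of each row, and all 6 were found. Small RNA under 30 nucleotides was sequenced as 1 library for each of 2 biological replicates of B6NCrl intestine. Both libraries came from healthy pooled embryos of both sexes, replicate 2 from 41 embryos and replicate 1 from a number that the labels do not give. No treatment, mutation or control group is part of the design, so the comparisons are among the genes and between the replicates. The tissue is whole intestine, in which fewer cells of a type and less miRNA per cell cannot be told apart.

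MicroRNAs are cut from hairpin transcripts as a duplex of a 5p and a 3p arm, and the arm loaded into an Argonaute protein represses messenger RNAs that pair with its seed, bases 2 to 8. The miR-181 family is known above all from lymphocytes, where in mice it shapes thymocyte development and the sensitivity of the T cell receptor, and it is also studied in endothelium and neurons. The genes lie as 3 tandem pairs, each of which holds an a-like or c gene beside a b-like or d gene.

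The mature sequences decide which reads can be assigned to which gene, so they are given before the levels. RefSeq (build GRCm38.p6, the same assembly as mm10) held mature sequences for all 6 genes, 10 distinct ones in 12 entries. The 5p arms follow 5′ to 3′, with the seed in capitals, since they are the arms by which the family is defined:
mmu-miR-181a-5p (Mir181a-1 and Mir181a-2): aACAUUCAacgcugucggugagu
mmu-miR-181b-5p (Mir181b-1 and Mir181b-2): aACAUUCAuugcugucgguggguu
mmu-miR-181c-5p (Mir181c): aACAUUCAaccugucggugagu
mmu-miR-181d-5p (Mir181d): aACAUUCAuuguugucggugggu
All 4 carried the seed ACAUUCA, and of 1679 mature names in the table no other had it. The arms fell into an a and c type and a b and d type. From mmu-miR-181a-5p to mmu-miR-181c-5p, 22 of 23 aligned positions were identical and the remaining one was a gap. From mmu-miR-181b-5p to mmu-miR-181d-5p the substitution was C12U, counted from 1 at the 5′ end, and the d arm was 23 bases long against 24. Between mmu-miR-181a-5p and mmu-miR-181b-5p identity was 83.3%.

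The 3p arms, which come from the other side of the hairpin, differed between all 6 genes. They are shown because they hold the letters by which the a and b copies can be told apart, again with bases 2 to 8 in capitals:
mmu-miR-181a-1-3p: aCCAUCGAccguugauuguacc
mmu-miR-181a-2-3p: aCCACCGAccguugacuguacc
mmu-miR-181b-1-3p: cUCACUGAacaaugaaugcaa
mmu-miR-181b-2-3p: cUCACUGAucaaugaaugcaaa
mmu-miR-181c-3p: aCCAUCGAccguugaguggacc
mmu-miR-181d-3p: cCCACCGGgggaugaauguca
From mmu-miR-181a-1-3p to mmu-miR-181a-2-3p the substitutions were U5C and U16C, the first of which lies in the seed. From mmu-miR-181b-1-3p to mmu-miR-181b-2-3p the substitution was A9U, and the second arm was 22 bases long against 21. The 3p arms of Mir181a-1 and Mir181c had the same seed, CCAUCGA, and those of Mir181b-1 and Mir181b-2 had UCACUGA. No mature miRNA outside the family in the table had any of these seeds.

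A count of stretches of 18 bases, searched against all hairpin and mature sequences of 1072 genes in the table, showed what this means for the gene counts. For the 5p arm of Mir181a-1 and Mir181a-2, 0 of 6 stretches were found in 1 gene only, and for that of Mir181b-1 and Mir181b-2, 0 of 7. Each of these stretches was shared with the other copy and with no other gene of the table. For Mir181c and Mir181d, all 5 and all 6 stretches of the 5p arm were found in that gene alone, as was every stretch of each of the 6 3p arms. In the deposited tables reads that mapped to several loci form a class of their own, 26.2% of all reads in replicate 1 and 25.7% in replicate 2, outside every gene count. A read of the plain mature miR-181a-5p or miR-181b-5p fits 2 loci equally well. The counts of Mir181a-1, Mir181a-2, Mir181b-1 and Mir181b-2 therefore do not give the levels of these mature miRNAs, and how many of the reads in the class of several loci are miR-181 is not given in the tables.

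**Figure D1:**
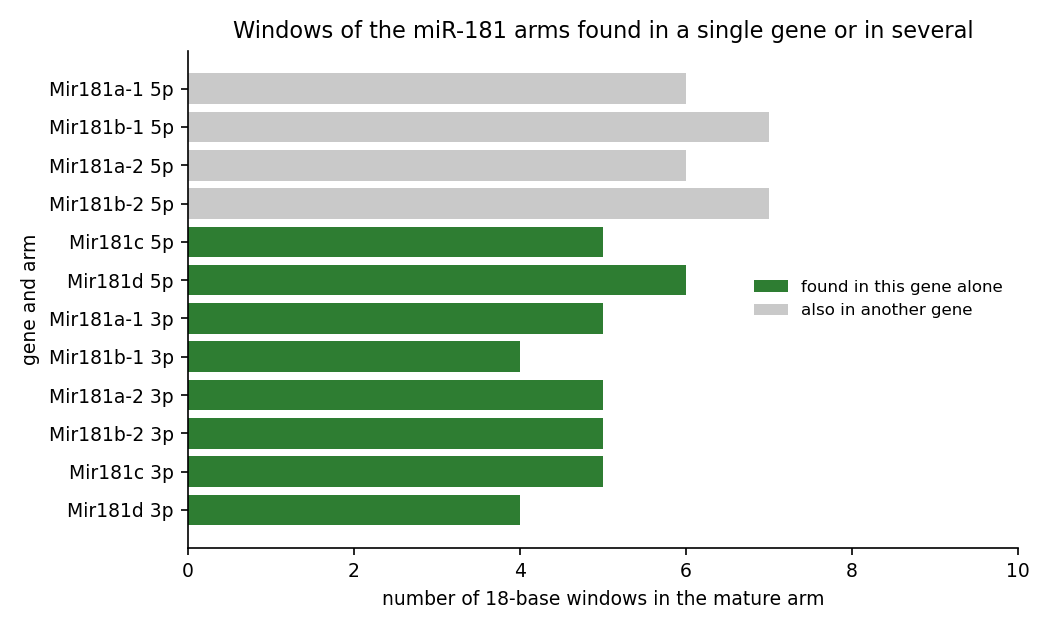
Number of stretches of 18 bases (x axis) in each mature arm of the 6 genes (y axis), coloured by whether the stretch is found in that gene alone or also in another gene of the RefSeq table. The 4 arms at the top, the 5p arms of the a and b copies, hold no stretch of their own, while every stretch of the other 8 arms is found in 1 gene.

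The sequence around the 5p arm sets how far a read must run past the mature end to be assigned to 1 copy. The arm is shown here from 2 bases before its start to 5 bases after its end, with the bases that differ from the other copy in capitals:
Mir181a-1 (chr1:137966466-137966495, plus strand): UgaacauucaacgcugucggugaguuuggA
Mir181a-2 (chr2:38852739-38852768, plus strand): GgaacauucaacgcugucggugaguuuggG
Mir181b-1 (chr1:137966648-137966678, plus strand): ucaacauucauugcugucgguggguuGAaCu
Mir181b-2 (chr2:38853843-38853873, plus strand): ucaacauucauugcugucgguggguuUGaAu
The a copies were identical over 28 bases, which reach 1 base before and 4 bases after the mature arm. The b copies were identical over 26 bases, which reach 2 bases before the arm and end with it. From Mir181b-1 to Mir181b-2 the first difference was G27U, counted from the first base shown, directly after the arm. A read that is 1 base longer than mmu-miR-181b-5p at its 3′ end thus differs between the b copies, whereas the a copies need 5 more bases there. Over the whole hairpins, in which 14 to 21 bases lie between the arms, identity was 71.4% for the a copies and 72.8% for the b copies. The tables hold counts per gene and not per arm or read length, and matches elsewhere in the genome were not searched, so the part of 3p reads and of longer 5p reads in each count was not tested.

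The pair on chromosome 8 held most of the family's gene counts. Mir181c lies at chr8:84178873-84178961 and Mir181d at chr8:84178716-84178787, both on the minus strand in an intron of Nanos3, a gene of germ cell development, on the same strand as that gene. The pair lies 85 bases apart. Levels are given in CPM, the own-strand counts of a gene as parts per 1000000 of all gene counts of the library. The mature arms are 21 to 24 bases long, read lengths were not given, and no length correction was made. Mir181c had 3958 CPM in replicate 1 and 3691 CPM in replicate 2, from 16870 and 20968 counts. Mir181d had 2729 CPM in replicate 1 and 2539.8 CPM in replicate 2, from 11632 and 14428 counts. Mir181c was thus the higher of the pair in both libraries, and the ranges of the 2 genes did not overlap. The ratio of Mir181c to Mir181d was 1.45 in replicate 1 and 1.45 in replicate 2 (1.45 ± 0.0021, SD, n = 2), the closest agreement between the libraries among the 8 ratios of single genes computed. The exact Clopper-Pearson 95% intervals were 3899 to 4018 CPM and 3641 to 3741 CPM for Mir181c in replicates 1 and 2, and 2680 to 2779 CPM and 2499 to 2582 CPM for Mir181d. These intervals cover counting error within 1 library only and leave out the spread between the libraries. PCR copies of 1 molecule could not be told apart, which the intervals do not allow for.

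On chromosome 1 the a gene far exceeded the b gene. Mir181a-1 (chr1:137966455-137966541) and Mir181b-1 (chr1:137966639-137966718) lie 97 bases apart on the plus strand, in an intron of the transcript gene Gm4258. Mir181b-1 lies wholly in an exon of the lincRNA A430106G13Rik, which takes in 11 bases of Mir181a-1. Mir181a-1 had 841 CPM in replicate 1 and 705 CPM in replicate 2, from 3584 and 4003 counts. Mir181b-1 had 14.5 CPM in replicate 1 and 13.6 CPM in replicate 2, from 62 and 77 counts, with intervals of 11.2 to 18.6 CPM and 10.7 to 16.9 CPM. The ratio of Mir181a-1 to Mir181b-1 was 57.8 in replicate 1 and 52.0 in replicate 2 (54.9 ± 4.11, n = 2), so the gap was far larger than the spread between the libraries.

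On chromosome 2 the order of the a and b genes was the opposite. Mir181a-2 (chr2:38852735-38852810) and Mir181b-2 (chr2:38853830-38853918) lie 1019 bases apart on the plus strand, in an intron of Nr6a1, a nuclear receptor gene transcribed from the other strand. Mir181b-2 had 752 CPM in replicate 1 and 564 CPM in replicate 2, from 3204 and 3203 counts. Mir181a-2 had 43.4 CPM in replicate 1 and 28.3 CPM in replicate 2, from 185 and 161 counts. The ratio of Mir181b-2 to Mir181a-2 was 17.3 in replicate 1 and 19.9 in replicate 2 (18.6 ± 1.82, n = 2). The 2 genes with high counts, Mir181a-1 and Mir181b-2, therefore lie in different pairs, and each sits beside a gene with low counts. All 4 of these counts leave out reads that fit both copies, so the ratios describe the assignable reads and not the molecules that each gene makes.

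**Figure D2:**
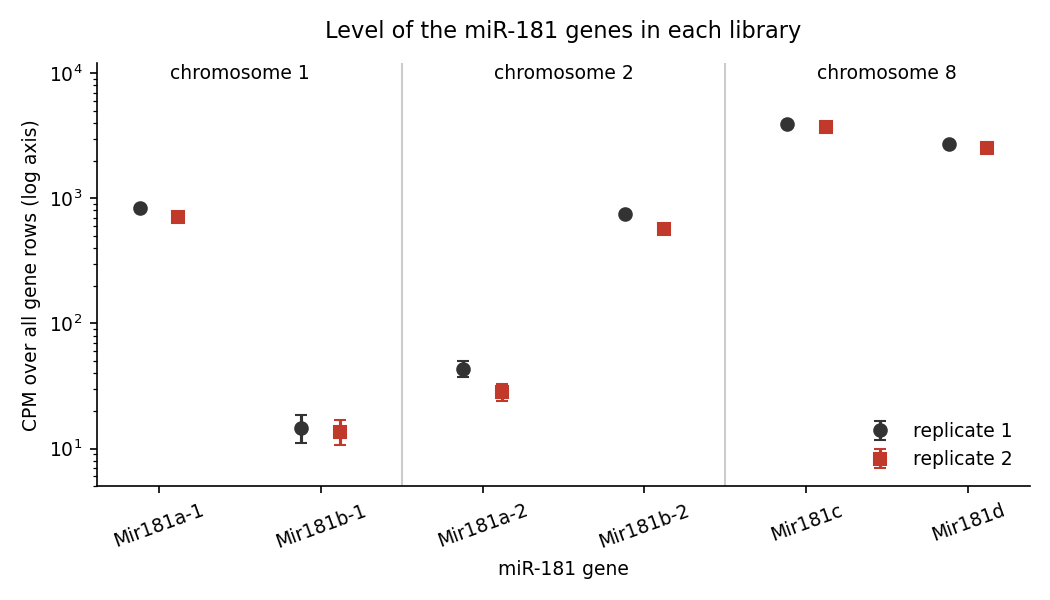
Level of each miR-181 gene in CPM on a log axis (y), for replicate 1 (circles) and replicate 2 (squares), with exact 95% intervals as bars and the genes grouped by chromosome (x). Mir181c and Mir181d stand at 2539.8 CPM or more in both libraries, Mir181a-1 and Mir181b-2 between 564 and 841 CPM, and Mir181a-2 and Mir181b-1 at 43.4 CPM or less.

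The 6 genes together held 0.834% of all gene counts in replicate 1 and 0.754% in replicate 2 (0.794% ± 0.0564, n = 2). Of the family's counts, Mir181c and Mir181d gave 80.2% and 82.6% in replicates 1 and 2, the pair on chromosome 1 gave 10.3% and 9.52%, and the pair on chromosome 2 gave 9.54% and 7.85%. Mir181c alone gave 48.2% ± 1.04 and Mir181d 33.2% ± 0.669. The sum of the chromosome 8 pair was 8.25 ± 0.607 times that of the chromosome 1 pair and 9.47 ± 1.49 times that of the chromosome 2 pair. The 5p arms of the first pair hold stretches of their own and those of the other pairs hold none, so these folds do not compare the output of the loci. The chromosome 1 pair was 1.14 ± 0.0969 times the chromosome 2 pair, above 1 in both libraries (1.08 and 1.21).

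Ordered by mean, the levels ran from Mir181c (3825 ± 189 CPM) and Mir181d (2635 ± 134 CPM) to Mir181a-1 (773 ± 96.4 CPM), Mir181b-2 (658 ± 133 CPM), Mir181a-2 (35.9 ± 10.7 CPM) and Mir181b-1 (14.1 ± 0.702 CPM). The order was the same in both libraries. The ranges over the libraries overlapped for Mir181a-1 and Mir181b-2 and for no other neighbours in the order. Within a library Mir181a-1 was the higher of these 2 genes, at a ratio to Mir181b-2 of 1.12 in replicate 1 and 1.25 in replicate 2 (1.18 ± 0.0927, n = 2), and their intervals did not overlap in either library. All 6 reached 10 counts or more in each library, which 17.6% of the 1973 gene rows did, and none of the 6 had a read on the opposite strand. The median of the 347 rows so detected was 154 CPM. Mir181c, Mir181d, Mir181a-1 and Mir181b-2 lay above it, and Mir181a-2 and Mir181b-1 below it.

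**Figure D3:**
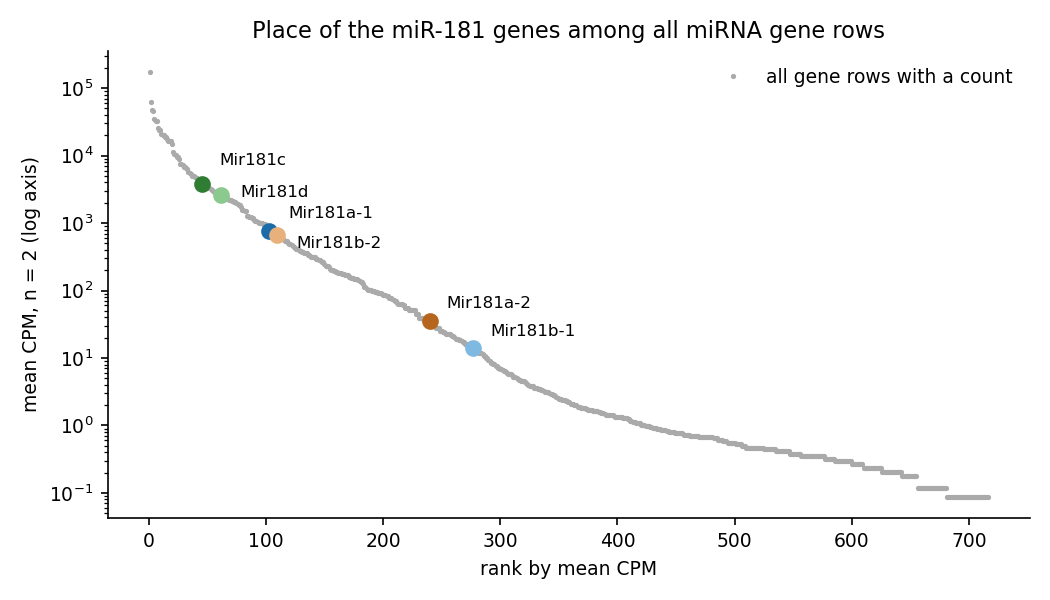
Mean CPM of the libraries on a log axis (y, n = 2) against rank (x) for every miRNA gene row with a count, with the miR-181 genes marked. Mir181c stands at rank 46, Mir181d at 62, Mir181a-1 at 103, Mir181b-2 at 110, Mir181a-2 at 240 and Mir181b-1 at 277.

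The genes nearest to Mir181c in level, by the difference of mean CPM over the 2 libraries, were Mir182 (3836 ± 37.2 CPM) and Mir18 (3828 ± 320 CPM) directly above it and Mir22 (3812 ± 413 CPM) and Mir369 (3784 ± 660 CPM) directly below it. The ranges of all 4 overlapped that of Mir181c. Those nearest to Mir181b-1 were Mir1247 (14.7 ± 7.80 CPM) and Mir218-1 (14.5 ± 2.20 CPM) above it and Mir6538 (13.8 ± 6.34 CPM) and Mir346 (13.3 ± 2.40 CPM) below it, with ranges that overlapped that of Mir181b-1.

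The a and b copies were set beside other miRNAs that are encoded more than once. Among gene rows numbered as copies, 20 sets had an identical mature sequence in every copy and more than 3 counts in each copy and library. The fold of the highest over the lowest copy had a median of 3.83 over these sets, with a range of 1.09 to 51.1. Mir181b-2 over Mir181b-1 came second, at 51.7 in replicate 1 and 41.6 in replicate 2 (46.6 ± 7.13, n = 2), and Mir181a-1 over Mir181a-2 came next, at 19.4 and 24.9 (22.1 ± 3.88). Only the copies of Mir196a, a miRNA of the Hox clusters, lay farther apart (51.1 ± 7.73), and its spread overlapped that of the Mir181b copies. After these came Mir103 (16.8 ± 6.75), Mir92 (15.0 ± 0.307) and Mir199a (14.3 ± 7.97). The ranges of Mir103 and Mir199a overlapped that of the Mir181a copies. In all these sets reads that fit several copies are outside the counts, and no test was made.

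**Figure D4:**
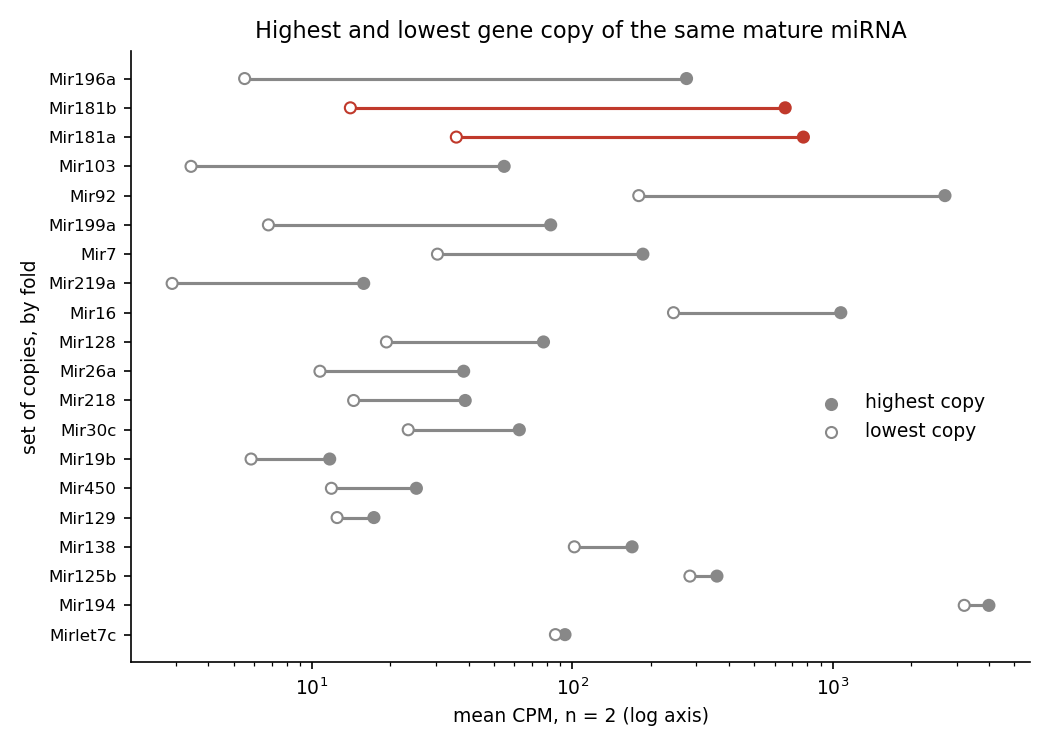
Mean CPM on a log axis (x, n = 2) of the highest copy (filled) and the lowest copy (open) of 20 miRNAs encoded by more than 1 gene (y, ordered by fold), with the miR-181 sets in red. The Mir181b copies lie 46.6-fold apart and the Mir181a copies 22.1-fold apart, against a median of 3.83 over the sets.

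The question of how well the libraries agree was put to each gene with an exact two-sided binomial test of its counts in replicate 1 against replicate 2. The expected share came from TMM effective library sizes, which scale libraries by the bulk of genes, and p-values were adjusted by Benjamini-Hochberg over the 364 genes with at least 20 counts summed. All 6 members entered it. The test compares 2 libraries, covers counting error only and passed 51.9% of all tested genes, 27.5% higher in replicate 1 and 24.5% higher in replicate 2. Mir181b-2 was higher in replicate 1 by a log2 ratio of 0.29 (counting SE 0.04, adjusted p of the exact test 1.55e-14). Mir181a-2 was higher by 0.48 (SE 0.16, adjusted p of the exact test 0.00506) and Mir181a-1 by 0.13 (SE 0.03, adjusted p of the exact test 0.000498). These 3 of the 6 genes passed, which is near the share of all genes.

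The other 3 members gave small ratios that did not pass. The log2 ratio of replicate 1 over replicate 2 was -0.03 for Mir181c (adjusted p of the exact test 0.0985), -0.03 for Mir181d (0.229) and -0.03 for Mir181b-1 (0.972), the last with a counting SE of 0.25. Their sign depended on the scaling: with total counts in place of TMM, which raises every log2 ratio by 0.13, each of them was 0.10 and all but Mir181b-1 passed. With total counts 5 of the 6 members passed, all higher in replicate 1, against 57.7% of all genes (45.1% higher in replicate 1 and 12.6% higher in replicate 2). The median absolute log2 ratio was 0.08 over the members and 0.21 over the 364 genes with TMM, and 0.18 and 0.23 with total counts. With TMM the value over all genes depended on the count minimum. It was 0.44 with at least 1 count summed and 0.18 with at least 100, while that of the members stayed at 0.08. Genes of like counts were not compared. Mir181c and Mir181d also passed, as higher in replicate 2, with DESeq2 size factors (adjusted p of the exact test 0.00397 and 0.0291). Over the alternatives the adjusted p of the exact test ranged from 5.64e-11 to 0.361 for Mir181c and from 2.76e-08 to 0.549 for Mir181d.

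**Figure D5:**
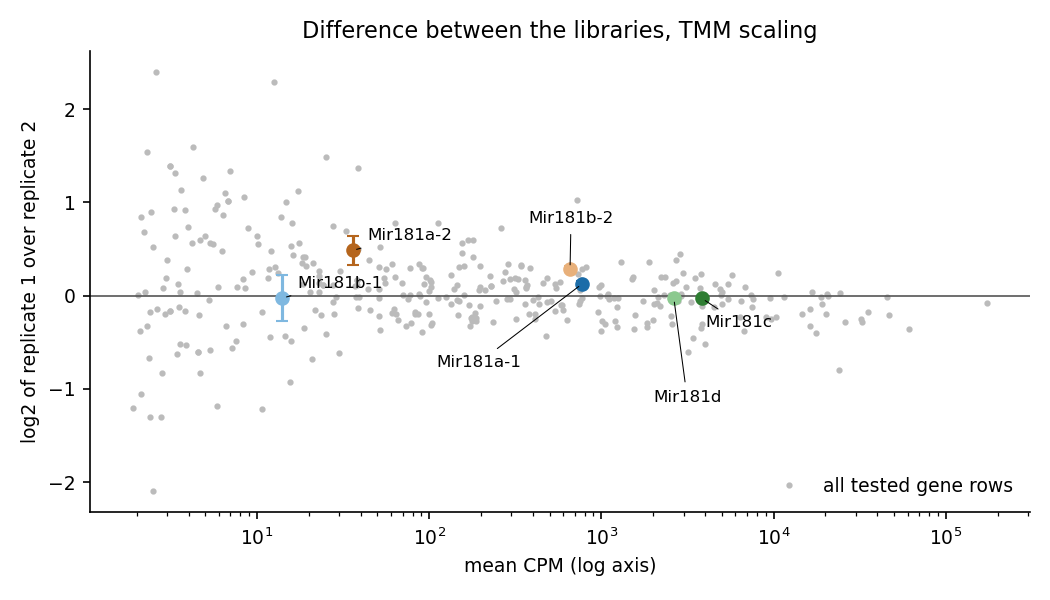
Log2 ratio of replicate 1 over replicate 2 after TMM scaling (y) against mean CPM on a log axis (x) for 364 gene rows, with the miR-181 genes in colour and their counting SE as bars. Mir181a-2 (0.48), Mir181b-2 (0.29) and Mir181a-1 (0.13) lie above 0, and Mir181c, Mir181d and Mir181b-1 lie at -0.03.

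The labelled tissue was checked against miRNAs known from its cell types, whose levels do not show which cells the miR-181 reads came from. The 10 listed epithelial genes, led by Mir429 and Mir215, were all detected and held 11.6% ± 1.06 of the gene counts, and 5 smooth muscle and mesenchymal genes held 18.1% ± 0.544, most of it Mir143. Mir126a of endothelium, in which miR-181 is also studied, stood at 32188 ± 1983 CPM. The neural list held 0.192% ± 0.0147, most of it Mir137 (1542 ± 171 CPM), with 6 of 10 genes detected. Other genes of that list were low or without counts. Mir9-3 had 28 and 23 counts in replicates 1 and 2, Mir124a-1 had 0 and 2, and Mir124a-2, Mir124a-3 and Mir9-2 had 0. Reads that fit several loci are outside these counts. Of the blood and immune list, 7 of 8 genes with a row were detected and together held 0.407% in replicate 1 and 0.335% in replicate 2, lower than the miR-181 genes in both. Mir342 (2215 ± 355 CPM) and the myeloid Mir223 (777 ± 38.9 CPM) led it, while Mir146, the gene of miR-146a, stood at 102 ± 14.0 CPM, and the lymphocyte miRNAs Mir155 (63.0 ± 10.1 CPM) and Mir150 (20.9 ± 5.61 CPM) were lower. Mir142b, whose row had 0 counts on its own strand, had 5602 and 8434 counts on the opposite strand in replicates 1 and 2. Such reads are outside the list share, as is Mir142, which had no row. These list shares are parts of all gene counts and are not TMM-scaled, unlike the test of the members. On that scale the blood and immune list was higher in replicate 1. So was the smooth muscle and mesenchymal list (18.5% in replicate 1 and 17.7% in replicate 2). The other lists were lower in replicate 1 than in replicate 2. They were the epithelial list (10.8% and 12.3%), Mir126a of endothelium (3.08% and 3.36%) and the neural list (0.181% and 0.202%). With TMM scaling, Mir143 was lower in replicate 1 (log2 ratio -0.08, adjusted p of the exact test 8.85e-259). In the same TMM-scaled binomial test, Mir342 was higher in replicate 1 (log2 ratio 0.20, adjusted p of the exact test 2.71e-23). So was Mir451a of the blood and immune list (0.30, 1.50e-09), while Mir150 was lower there (-0.68, 0.0025). Mir155 (0.20, 0.147), Mir146 (0.15, 0.169), Mir144 (0.11, 0.210) and Mir223 (-0.03, 0.513) did not pass. The part of blood and immune cells in the miR-181 counts was not tested.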

How the data were processed

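The authors deposited raw, unscaled counts per miRNA gene; their readme names mm10 and GENCODE M4. Aligner, counter and trimming are not stated in the files or labels used. Each table has 1973 gene rows, 3 columns of counts and 4 leading rows that name no gene and were left out of totals. The columns carry no names. The third column was taken as own-strand counts, since it and the fourth summed to the second in all 1973 rows and it held 96.2% and 96.3% of the second. Each column added up to the same number of reads (8747512 in replicate 1 and 10876035 in replicate 2), so a read stands in 1 class only. Of these, 4261976 and 5680764 were gene counts. Unmapped reads were 19.5% and 17.2%, and reads with no gene on their strand 5.60% and 4.86%. A set floor of 3 counts was 0.704 and 0.528 CPM, and a gene was called detected at 10 counts or more in each library.

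Identifiers were matched to GENCODE M21 on the same assembly (1894 of 1973; the others held 2 counts). Computed from the counts were CPM, exact Clopper-Pearson intervals, ratios, and an exact binomial test with TMM from edgeR 4.0.16 and a prior of 0.5 counts for ratios. With 1 group, edgeR's quasi-likelihood test could not be fitted. Python 3.11.15, scipy 1.17.1 and R 4.3.3 were used. Sequences are from RefSeq, GRCm38.p6. A hairpin was found for 5 of the 6 members, Mir181c having only its mature arms. Listed genes were matched by symbol or RefSeq synonym. Those found under neither, such as Mir142, were not analysed here.

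Named were all 6 members, the rank neighbours of the highest and the lowest of them, genes of the marker lists and the leading sets of copies, the last chosen after their values were seen. The members and lists were chosen with earlier results of these data known. Alternatives were unstranded counts, other denominators and scalings (total counts, DESeq2 1.42.0 size factors), count minimums of 1 and 100, a prior of 2 counts, each replicate alone and stretches of 20 and 22 bases.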

Additional observations from a re-analysis of the deposited data

How the results depend on the processing

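With 2 libraries of 1 group, the spread rests on a single difference per gene, and no setting adds replicates. Scaled to all reads of a library in place of its gene counts, the CPM levels were 1928 for Mir181c, 1328 for Mir181d, 389 for Mir181a-1, 330.4 for Mir181b-2, 17.98 for Mir181a-2 and 7.08 for Mir181b-1, and the family held 0.400% of all reads. On this scale the SD between the libraries was 0.452 for Mir181c and 2.24 for Mir181d. With the most abundant gene, Mir143, left out of the total, Mir181c stood at 4629.9 CPM, Mir181d at 3189, Mir181a-1 at 936, Mir181b-2 at 797 and Mir181b-1 at 17.0, and the share was 0.961%. Both follow from the denominator, larger in the first case and smaller in the second, which leaves the ratios between members as they were. Counts without regard to strand moved no level, share or ratio of the members by more than 1 SD, and neither did TMM scaling for the levels. Leaving out a replicate left the family share at 0.754% or 0.834%.

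Total counts in place of TMM gave 164 genes higher in replicate 1 and 46 higher in replicate 2, against 100 and 89. The log2 ratios of Mir181c, Mir181d and Mir181b-1 then turned to 0.10, and those of the other 3 members kept their sign under every scaling, count minimum and prior tried. With a minimum of 1 count summed Mir181c and Mir181d passed as higher in replicate 2, with 100 counts Mir181c did. Stretches of 20 and 22 bases gave the same split of the arms, except that the 3p arms of Mir181b-1 and Mir181d, 21 bases long, hold no stretch of 22. Mir181b-1, at 62 and 77 counts, and Mir181a-2, at 185 and 161, are the members that depth limits most.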
